A study of Mus musculus with 28 samples.

Results

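The 491 regions described here lie at the start of a noncoding RNA gene, and 490 of them were called for H3K27me3 in resting microglia. They were taken from 26326 regions with tag counts as those whose nearest gene has the type ncRNA in the deposited annotation, with a start site (TSS) no more than 5000 bp from the region's centre and a width under 50000 bp. The rule used no measured difference between groups. The remaining member, a region in Bhlhe40, has counts but is not among the authors' 26325 basal regions. The same rule applied to protein-coding genes gives 4419 regions, which served for comparison. Just inside the width limit lay 5033428I22Rik at 49057 bp, and just outside it Bloodlinc at 54471 bp. With Bloodlinc, 22 regions within the distance limit were too wide, the widest being that of Hotair at 410326 bp. At the distance limit, BB014433 lay inside at 4979 bp and 9330102E08Rik outside at 5031 bp.

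The mark was measured by ChIP-seq in wild-type (WT) C57BL/6 microglia of adult males, in 4 groups of 3 libraries. CD229+CD11c+, CD229+CD11c- and CD229-CD11c- microglia were sorted after a diet with 0.2% cuprizone for 4 weeks. Basal microglia, gated as low in CD44, CD45 and CD11b, came from animals fed a regular diet. CD229 is a SLAM family receptor and CD11c an integrin chain, and cuprizone is a copper chelator that kills oligodendrocytes and so removes myelin. For sorting, brains of 2 to 6 animals of 1 condition were pooled. Nothing in the labels says that the libraries of a group came from separate pools, so p-values measure the spread between these libraries, which may be technical. The gates of basal and cuprizone cells differ in the labels, so diet and sort cannot be told apart against basal microglia.

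H3K27me3 is set by Polycomb repressive complex 2, and it is found over genes that a cell lineage keeps silent, above all the regulators of other lineages. Many long noncoding RNAs (lncRNAs) start beside such regulators on the opposite strand and share their chromatin. MicroRNAs (miRNAs) are cut from hairpins in longer transcripts and recognise messenger RNAs through their seed, bases 2 to 8, so the annotated start of a miRNA gene is the end of its hairpin and not the start of the primary transcript. Microglia are the macrophages of the brain, and after myelin loss they take up debris and change their surface proteins.

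The 491 regions carried 482 gene symbols, and 8 symbols had more than 1 region. RefSeq lists 401 as lncRNA genes, 84 as miRNA genes, 2 as antisense RNAs, 1 as a guide RNA and 3 as protein-coding, among the last Gm11549, whose RefSeq symbol is Smim43. Region widths ran from 1250 to 49057 bp with a median of 7548 bp, against 7199 bp at protein-coding starts. In the 2 basal libraries on which the authors called the regions, the log2 fold over input had a median of 1.57, against 1.71 at protein-coding starts and 1.49 over all regions. By centre, 184 regions were intronic, 134 intergenic and 98 at a promoter. In 81 of the 491 the region also held the start of a protein-coding gene listed in the RefSeq promoter table, so that the mark at the 2 genes is 1 measurement. Mean levels ran from 2.6 to 379 CPM (counts scaled to the library's region tags by TMM), with a median of 24.0 CPM.

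The positions of the regions were compared with lists of marker genes. The authors called the basal regions on other basal libraries, which are in none of the comparisons. The overlap would be the same whatever cells the compared libraries held, so it cannot check their labelled cell type. None of 20 microglia genes was overlapped by any of the 26326 regions, while regions overlapped 10 of 10 neuron, 7 of 8 astrocyte, 8 of 11 oligodendrocyte-lineage, 3 of 6 endothelial and 6 of 7 lymphocyte genes. Libraries held between 7740002 and 11362168 tags in regions, and a member had a median of 190 to 278 tags per library. The share of region tags in members was 1.94 ± 0.0055% for CD229+CD11c+, 1.99 ± 0.016% for CD229+CD11c-, 1.89 ± 0.0050% for CD229-CD11c- and 1.87 ± 0.016% for basal microglia (SD, n = 3 libraries each). A lower level in such bulk samples can mean fewer cells with the mark or less mark per cell, and these cannot be told apart.

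Of the 83 regions at miRNA genes, 72 matched a RefSeq mature sequence, and those 115 mature miRNAs had 113 different seeds. The sequences below (GRCm38.p6, 5′ to 3′, seed in capitals) are shown because their genes carry the miRNA results, and because 2 pairs of genes share a seed. miR-193a-3p and miR-193b-3p have 1 seed, and Mir129-1 and Mir129-2 encode the same miR-129-5p from different chromosomes.
miR-193a-3p (Mir193a, chr11:79712009-79712030, strand +): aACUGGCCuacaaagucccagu
miR-193b-3p (Mir193b, chr16:13449570-13449591, strand +): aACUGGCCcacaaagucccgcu
miR-129-5p (Mir129-2, chr2:94241419-94241439, strand -): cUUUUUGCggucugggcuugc
miR-181c-5p (Mir181c, chr8:84178924-84178945, strand -): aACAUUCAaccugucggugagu
miR-135a-5p (Mir135a-1, chr9:106154140-106154162, strand +): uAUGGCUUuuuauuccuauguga
miR-7a-5p (Mir7-2, chr7:78888295-78888317, strand +): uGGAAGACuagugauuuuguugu
miR-483-3p (Mir483, chr7:142654932-142654952, strand -): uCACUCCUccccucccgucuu
Of the 69 hairpins matched by gene, 56 lay inside their region. The regions at Mir181c and Mir135a-1 end short of the mature sequence: that of Mir181c starts at 84179911 on chromosome 8, above the mature miR-181c-5p on the minus strand, and that of Mir135a-1 ends at 106153893 on chromosome 9, below miR-135a-5p.

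A RefSeq promoter, 250 bp before to 50 bp after the start, was found for 319 of the 491 members. CpG dinucleotides, the base pairs that Polycomb target promoters are rich in, are the feature compared below, as the ratio of observed to expected CG. The promoters of 4 members named below are printed with every CG in capitals (GRCm38.p6). Lhx1os and Miat are CpG-rich, while 5730435O14Rik, which had the largest gain, and Gm2109, whose small fall did not hold in every fit, are CpG-poor.
Lhx1os promoter (chr11:84525410-84525709, strand +): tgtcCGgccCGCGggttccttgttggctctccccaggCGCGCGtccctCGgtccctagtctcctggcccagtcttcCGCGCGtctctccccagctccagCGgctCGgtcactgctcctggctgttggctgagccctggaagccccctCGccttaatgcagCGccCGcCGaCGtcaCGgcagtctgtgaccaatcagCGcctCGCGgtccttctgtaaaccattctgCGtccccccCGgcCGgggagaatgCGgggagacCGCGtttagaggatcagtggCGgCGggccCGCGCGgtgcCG
Miat promoter (chr5:112228899-112229198, strand -): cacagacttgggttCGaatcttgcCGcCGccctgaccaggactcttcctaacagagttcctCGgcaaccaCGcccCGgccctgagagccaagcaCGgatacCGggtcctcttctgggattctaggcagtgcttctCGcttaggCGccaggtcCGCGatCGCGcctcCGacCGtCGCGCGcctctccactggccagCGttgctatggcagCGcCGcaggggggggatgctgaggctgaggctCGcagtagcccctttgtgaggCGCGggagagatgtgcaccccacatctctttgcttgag
5730435O14Rik promoter (chr10:41567766-41568065, strand +): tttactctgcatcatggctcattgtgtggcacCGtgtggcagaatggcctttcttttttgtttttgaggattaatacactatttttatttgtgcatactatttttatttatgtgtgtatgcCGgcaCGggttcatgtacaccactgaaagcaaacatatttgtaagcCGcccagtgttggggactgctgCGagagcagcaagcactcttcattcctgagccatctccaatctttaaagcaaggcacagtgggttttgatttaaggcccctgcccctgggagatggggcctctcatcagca
Gm2109 promoter (chr9:83691225-83691524, strand +): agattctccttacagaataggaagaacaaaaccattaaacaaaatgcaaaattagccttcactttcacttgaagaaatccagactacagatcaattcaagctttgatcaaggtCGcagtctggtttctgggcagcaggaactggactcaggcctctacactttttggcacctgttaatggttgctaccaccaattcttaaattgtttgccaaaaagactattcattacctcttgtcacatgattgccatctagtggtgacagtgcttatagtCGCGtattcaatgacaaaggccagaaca
Lhx1os held 33 CG and Miat 25, with ratios of 0.926 and 0.807, against 5 CG (ratio 0.320) for 5730435O14Rik and 3 CG (ratio 0.249) for Gm2109. A ratio of at least 0.6 was found in 17.9% of the 319 member promoters, in 14% of 11588 lncRNA promoters in the table and in 47.7% of 21263 protein-coding promoters.

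In CD229+CD11c- against basal microglia, 80 of the 491 regions rose and 10 fell (edgeR quasi-likelihood test, adjusted p under 0.05 over all regions). Over all 26326 regions 9.52% rose and 3.47% fell, so the members' 16.3% higher lay above the background and their 2.04% lower below it. Protein-coding starts had 28.8% higher and 2.53% lower. The log2 fold changes of the risen members ran between 0.27 and 1.93 with a median of 0.55. In 79 of the 80 all CD229+CD11c- libraries lay above all basal libraries. Such separation largely follows from the call, which uses the same libraries, and its share over all regions was not counted. The median over all 491 was 0.04, against -0.03 over all regions. Scaling by total region counts moved the median of all regions to -0.16 and gave 56 members higher and 45 lower, so the split between gains and losses depends on the scaling. With loess offsets that remove the trend with basal enrichment and tag density, 35 rose and 13 fell, and 19 of the 40 calls followed at named members held. The 2 libraries per group with a PE150 tag in their titles gave 107 and 27, and replicate 3 of each group is the library without the tag. The authors' deposited table called 86 higher and 10 lower, and 2742 and 821 of all regions. Of all regions, total-count scaling called 1578 higher and 3789 lower, the loess offsets 1186 and 729, and the PE150-tagged libraries 3570 and 1962.

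**Figure D1:**
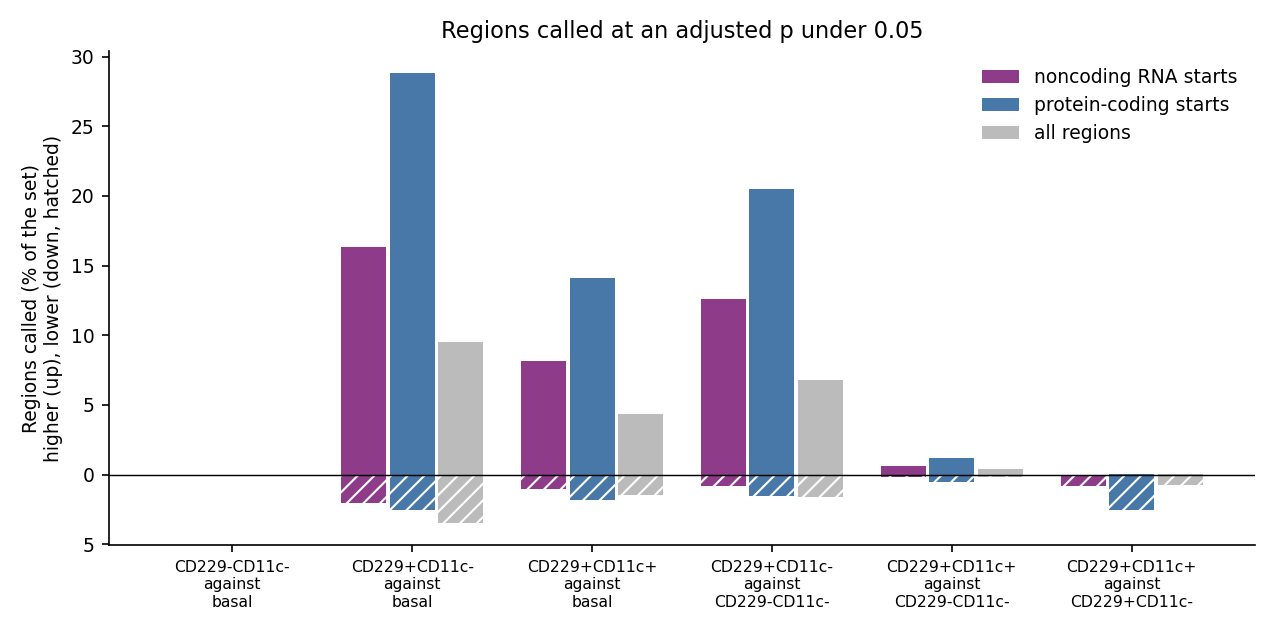
Share of regions called higher (solid, upward) and lower (hatched, downward) in each of the 6 comparisons, in percent of 491 regions at noncoding RNA starts, 4419 at protein-coding starts and 26326 in all. In CD229+CD11c- against basal microglia 16.3% of the noncoding set were higher, between 9.52% of all regions and 28.8% at coding starts.

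The region at 5730435O14Rik, a lncRNA gene, had the largest gain of the set. It spans 5527 bp (mm10, chromosome 10, 41565201 to 41570728) and held 37.5, 29.9 and 36.6 CPM in CD229+CD11c+ libraries, 43.1, 41.0 and 51.7 CPM in CD229+CD11c-, 17.6, 15.9 and 20.4 CPM in CD229-CD11c- and 14.5, 10.4 and 10.8 CPM in basal libraries. No library of either CD229+ subset overlapped those of the other groups, and the 3 CD229-CD11c- libraries also lay above the 3 basal ones. The log2 fold change against basal was 1.93 ± 0.14 in CD229+CD11c- (SE, adjusted p = 4.6e-08) and 1.55 ± 0.14 in CD229+CD11c+ microglia (adjusted p = 2.8e-06). Both calls held in every alternative fit.

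**Figure D2:**
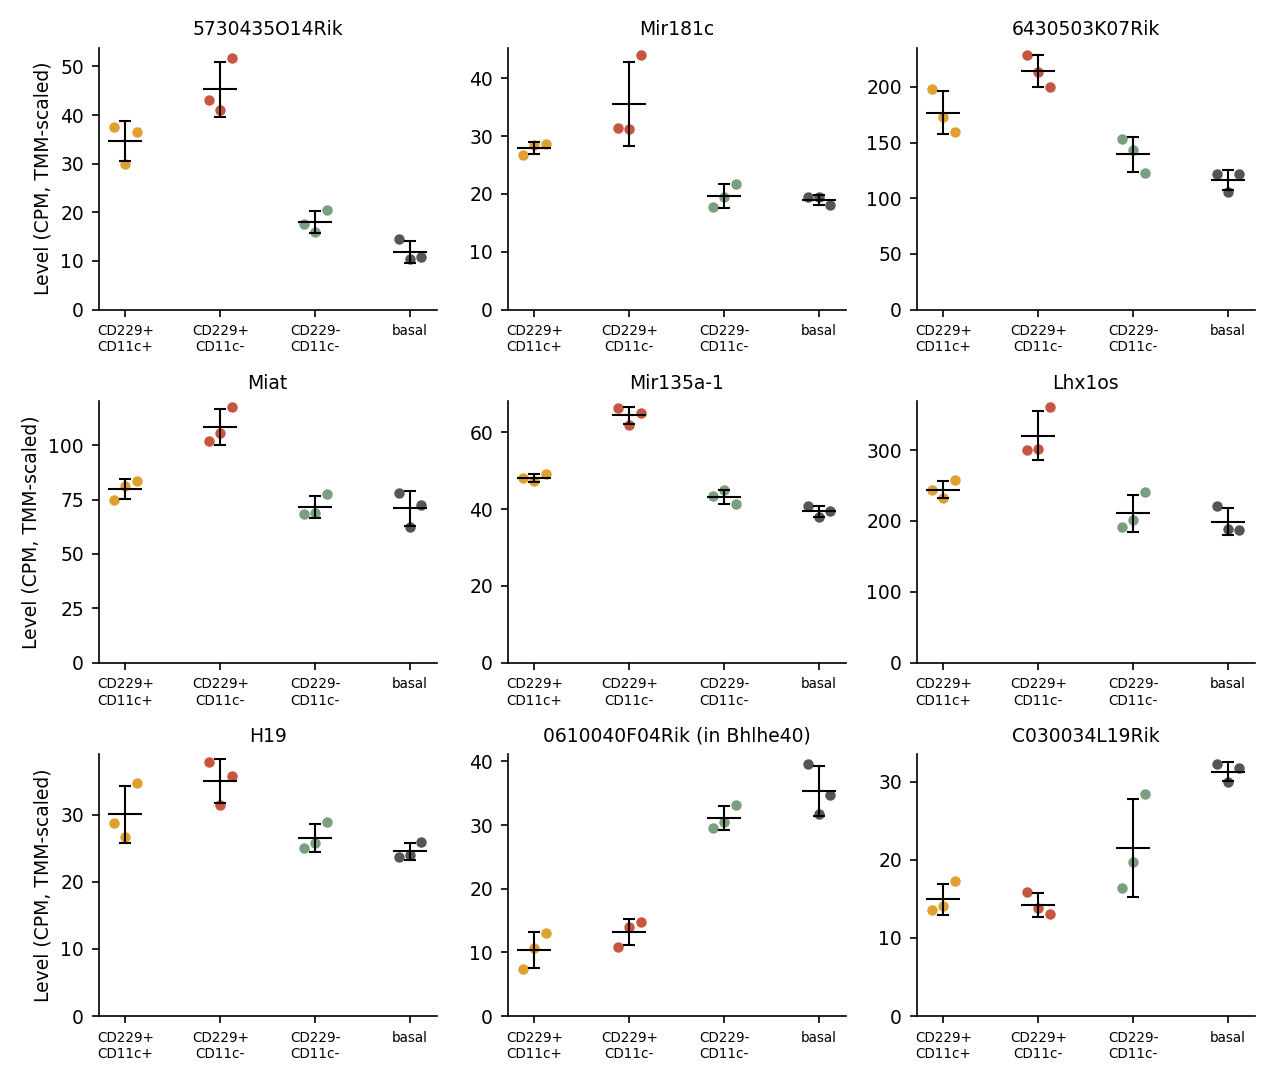
Level of 9 member regions in each library (dots, CPM with TMM scaling, axes from 0), with the mean and SD of the 3 libraries per group as bars. 5730435O14Rik stands highest in the CD229+CD11c- group at 41.0 to 51.7 CPM, Miat, Mir135a-1 and Lhx1os are lower in CD229+CD11c+ than in CD229+CD11c-, and the region in Bhlhe40 is low in both CD229+ groups at 7.39 to 14.7 CPM.

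Of the 80 risen regions, 39 also hold a protein-coding start. The region of 6430503K07Rik (27155 bp) also holds the start of Nkx2-2, a transcription factor of oligodendrocytes. It had 198, 173 and 160 CPM in CD229+CD11c+, 229, 214 and 200 CPM in CD229+CD11c-, 153, 143 and 122 CPM in CD229-CD11c- and 122, 106 and 122 CPM in basal libraries. Both CD229+ subsets lay wholly above basal, with log2 fold changes of 0.60 ± 0.09 (adjusted p = 0.00056) in CD229+CD11c+ and 0.88 ± 0.09 (adjusted p = 1.6e-06) in CD229+CD11c- microglia. Fzd10os, which starts beside the Wnt receptor gene Fzd10, had 0.53 ± 0.09 in CD229+CD11c+ (adjusted p = 0.001) and 0.81 ± 0.09 in CD229+CD11c- (adjusted p = 1.8e-06). Its levels were 61.8, 66.2 and 59.9 CPM in CD229+CD11c+, 80.9, 69.6 and 76.6 CPM in CD229+CD11c- and 48.0, 41.6 and 40.5 CPM in basal libraries, again without overlap. 5033428I22Rik, the widest member, shares its region with Hand2, a regulator of heart and limb, and its log2 fold changes were 0.47 ± 0.09 in CD229+CD11c+ (adjusted p = 0.0041) and 0.62 ± 0.09 in CD229+CD11c- microglia (adjusted p = 6e-05). 4932441J04Rik, which shares its region with the protocadherin gene Pcdh7, had 0.81 ± 0.13 in CD229+CD11c- microglia (adjusted p = 0.00023). With the loess offsets the CD229+CD11c- calls were lost at 5033428I22Rik (0.29, adjusted p = 0.075) and 4932441J04Rik (0.44, adjusted p = 0.057), and held at smaller values at 6430503K07Rik (0.53, adjusted p = 0.0014) and Fzd10os (0.43, adjusted p = 0.0044).

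Of the list of RNAs named after a developmental regulator, 4 of 107 symbols were members, and 3 of them rose in CD229+CD11c- against basal microglia. Lhx1os lies opposite Lhx1, a LIM homeobox gene, and its region of 31144 bp held 300, 302 and 360 CPM in CD229+CD11c- libraries, against 222, 188 and 187 CPM in basal libraries. Dlx1as is antisense to Dlx1, a homeobox gene of forebrain interneurons, and its region also holds Dlx2. It had the highest basal enrichment of all members (log2 3.28) and 403, 430 and 526 CPM in CD229+CD11c- against 360, 261 and 260 CPM in basal libraries. Evx1os, opposite the homeobox gene Evx1, had 299, 293 and 282 CPM in CD229+CD11c- and 226, 178 and 191 CPM in basal libraries. In all 3 the groups did not overlap, with log2 fold changes of 0.69 ± 0.09 for Lhx1os (adjusted p = 2.4e-05), 0.63 ± 0.13 for Dlx1as (adjusted p = 0.0029) and 0.56 ± 0.08 for Evx1os (adjusted p = 4.4e-05). None of the 3 passed with the loess offsets, under which Dlx1as turned to -0.13 (adjusted p = 0.43). Zfhx2os had 0.01 ± 0.10 (adjusted p = 0.96). None of the 25 symbols of the Hox-cluster list was a member. This does not mean that the mark was absent there. Regions at Hotair (410326 bp), Mir10b (198221 bp) and Halr1 (61215 bp), at Hox clusters, were left out as too wide.

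Sfta3-ps with Nkx2-1 had 0.56, 9230102O04Rik with Gata3 0.53, 2610016A17Rik with Dmrt2 0.54 and G630016G05Rik with Meis2 0.50 in CD229+CD11c- against basal microglia, and each was called. These 4 were picked after their values were seen. 2900092D14Rik, whose region of 44838 bp holds Pou3f3, had 0.50 ± 0.07 (adjusted p = 1.7e-05). That call was lost with the loess offsets (0.094, adjusted p = 0.56). In CD229+CD11c+ microglia it had 0.32 ± 0.07 (adjusted p = 0.0069), lost without CD229+CD11c+ replicate 1 (0.30, adjusted p = 0.052) or replicate 2 (0.28, adjusted p = 0.0575), and with the loess offsets (0.17, adjusted p = 0.26). Both members of the list of immune noncoding RNAs (2 of 54 symbols) had negative values that did not pass: Ptgs2os, beside the prostaglandin synthase gene Ptgs2, had -0.42 ± 0.24 (adjusted p = 0.27) and Ifngas1, near the interferon gamma gene, -0.34 ± 0.18 (adjusted p = 0.25).

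Among the 83 regions at miRNA genes, 19 rose and 1 fell in CD229+CD11c- against basal microglia, a share of 22.9% higher beside the 9.52% over all regions. Mir181c, of the miR-181 family known from lymphocytes, had 26.7, 28.6 and 28.7 CPM in CD229+CD11c+, 31.4, 31.2 and 44.0 CPM in CD229+CD11c-, 17.7, 19.6 and 21.7 CPM in CD229-CD11c- and 19.4, 19.4 and 18 CPM in basal libraries. Every CD229+ library lay above every CD229-CD11c- and basal library. Its log2 fold change was 0.91 ± 0.13 in CD229+CD11c- (adjusted p = 4.3e-05) and 0.56 ± 0.13 in CD229+CD11c+ microglia (adjusted p = 0.014). The second call was lost without basal replicate 4 (0.58, adjusted p = 0.063), basal replicate 5 (0.53, adjusted p = 0.055) or CD229+CD11c+ replicate 2 (0.55, adjusted p = 0.06). Mir1199, next to Misp3, had 21.5, 21.6 and 29.4 CPM in CD229+CD11c- and 13.3, 10.7 and 11.39 CPM in basal libraries, a log2 fold change of 1.04 ± 0.18 (adjusted p = 0.00028). Mir6546 had 62.9, 62.9 and 66.5 CPM in CD229+CD11c- and 40.5, 28.2 and 40.6 CPM in basal libraries, at 0.81 ± 0.12 (adjusted p = 8.7e-05). Mir1900 shares its region with Icam5, an adhesion molecule of neurons, and had 0.79 ± 0.09 in CD229+CD11c- (adjusted p = 4.8e-06), a call lost with the loess offsets (0.19, adjusted p = 0.14).

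**Figure D3:**
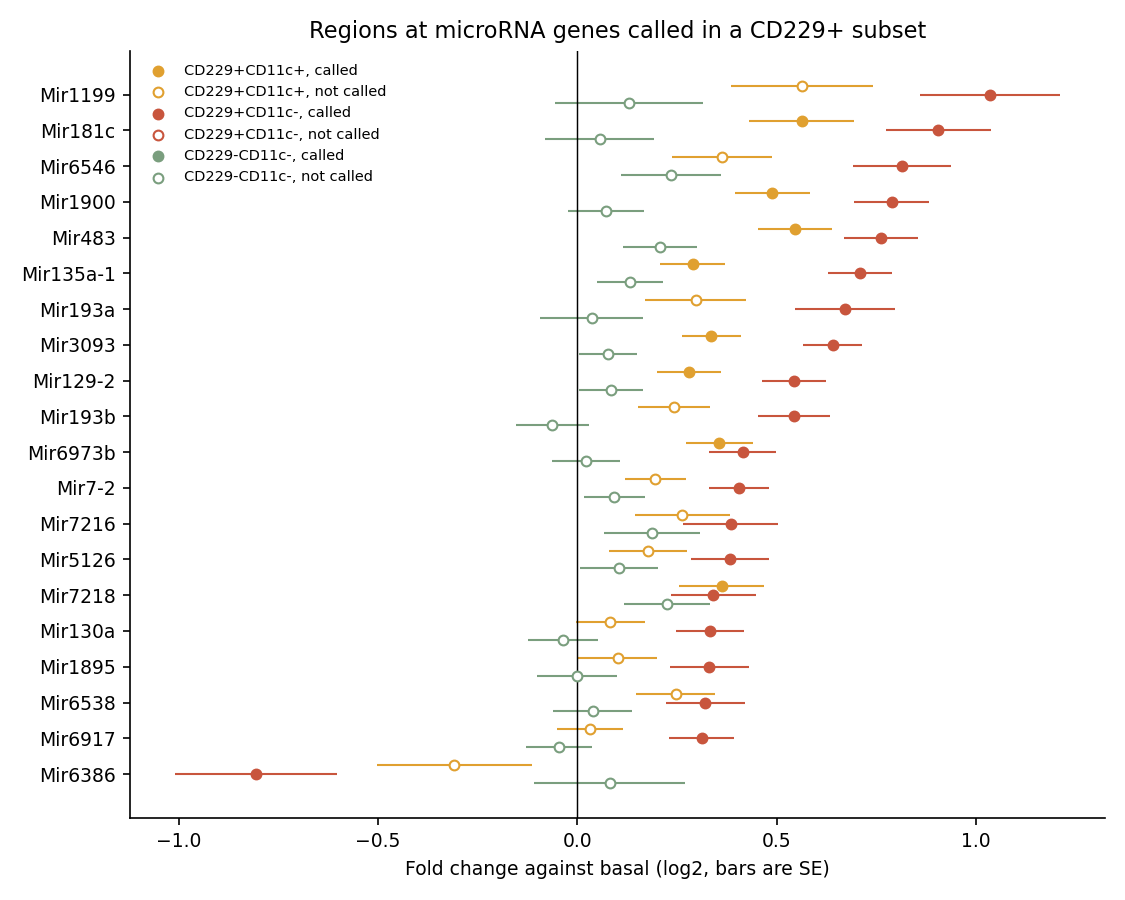
Log2 fold change against basal microglia, with SE bars, of the 20 regions at miRNA genes called in a CD229+ subset; colours mark the 3 cuprizone subsets and filled points passed the test. The CD229+CD11c- points run from -0.81 at Mir6386 to 1.04 at Mir1199, and no CD229-CD11c- point passed.

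Mir193a and Mir193b, of 1 seed, both rose, and of the 2 genes of miR-129-5p only Mir129-2 passed. Mir193a had 58.1, 45.3 and 66.4 CPM in CD229+CD11c- and 40.6, 33.9 and 32.3 CPM in basal libraries, and Mir193b 77.6, 71.2 and 76.2 CPM against 50, 52.3 and 52.1 CPM. Neither overlapped, and the log2 fold changes were 0.67 ± 0.13 for Mir193a (adjusted p = 0.00081) and 0.54 ± 0.09 for Mir193b (adjusted p = 0.0002). Mir129-2 had 125, 127 and 144 CPM in CD229+CD11c- and 101, 81.2 and 90.3 CPM in basal libraries, at 0.54 ± 0.08 (adjusted p = 5.1e-05). Mir129-1, which encodes the same miR-129-5p, had 103, 103 and 100.0 CPM in CD229+CD11c- and 87.6, 87.6 and 104 CPM in basal libraries, at 0.13 ± 0.08 (adjusted p = 0.34). The difference between the 2 genes was not tested. With the loess offsets the Mir129-2 call was lost, at 0.072 (adjusted p = 0.65). For miR-7a-5p and miR-135a-5p, which are also made from a second gene, no region overlapped the other copy, Mir7-1 or Mir135a-2.

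Of the list of neural and oligodendrocyte miRNAs, 9 of 40 symbols were members and 3 rose in CD229+CD11c- against basal microglia. Besides Mir129-2 these were Mir7-2, which makes the neuroendocrine miR-7a, at 0.41 ± 0.08 (adjusted p = 0.00064), and Mir124-2hg, the host gene of the neuronal miR-124, at 0.40 ± 0.10 (adjusted p = 0.0098). Mir7-2 had 95.4, 87.6 and 88.3 CPM in CD229+CD11c- and 72.9, 62.6 and 69.3 CPM in basal libraries, without overlap. Mir124-2hg had 100, 91.9 and 86.3 CPM in CD229+CD11c+, 94.4, 90.0 and 82.7 CPM in CD229+CD11c- and 68.7, 67.8 and 65.6 CPM in basal libraries, so that the CD229+ subsets overlapped each other and both lay above basal. Its CD229+CD11c- call was lost without CD229+CD11c- replicate 1 (0.36, adjusted p = 0.058) and with total-count scaling (0.27, adjusted p = 0.058), under which Mir7-2 kept its call at 0.27 (adjusted p = 0.012). With the loess offsets none of the 3 passed, Mir7-2 standing at 0.11 (adjusted p = 0.46) and Mir124-2hg at 0.11 (adjusted p = 0.62). The other members of the list, Mir153, Mir137, Mir129-1, Mir128-2, Mir138-1 and Mir184, did not pass in any comparison, Mir184 standing at -0.20 ± 0.09 (adjusted p = 0.16). Mir205 of epithelia (0.09 ± 0.14, adjusted p = 0.76) and Mir208a of heart muscle (0.09 ± 0.11, adjusted p = 0.65) did not pass either.

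Less known miRNA genes followed. Mir3093, whose region of 45243 bp is among the 5 longest, had 478, 463 and 515 CPM in CD229+CD11c- and 340, 292 and 302 CPM in basal libraries, at 0.64 ± 0.07 (adjusted p = 3.3e-06), lost with the loess offsets (0.13, adjusted p = 0.18). Mir6973b, beside the neurotrophic receptor gene Gfra4, had 0.42 ± 0.08 (adjusted p = 0.0015), and 0.022 (adjusted p = 0.93) with the loess offsets. Mir6917 had 0.31 ± 0.08 (adjusted p = 0.013), which was lost without basal replicate 5 (0.26, adjusted p = 0.076) or CD229+CD11c- replicate 3 (0.27, adjusted p = 0.053), with total-count scaling (0.17, adjusted p = 0.14) and with the loess offsets (0.15, adjusted p = 0.24). Mir6386 was the one miRNA region that fell, with 5.69, 9.0 and 6.73 CPM in CD229+CD11c- and 11.0, 15.2 and 11.0 CPM in basal libraries, at -0.81 ± 0.20 (adjusted p = 0.0094). That call was lost without basal replicate 4 (-0.64, adjusted p = 0.092) or CD229+CD11c- replicate 1 (-0.66, adjusted p = 0.075).

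On distal chromosome 7, 3 members lie in the imprinted Igf2-H19 cluster, in which H19 is expressed from the maternal copy and Igf2 from the paternal one. Mir483 sits within Igf2, and its region of 26766 bp had 178, 164 and 145 CPM in CD229+CD11c+, 206, 181 and 179 CPM in CD229+CD11c-, 141, 133 and 111 CPM in CD229-CD11c- and 120, 102 and 112 CPM in basal libraries. H19 had 37.8, 31.4 and 35.7 CPM in CD229+CD11c- and 23.6, 24.0 and 26.0 CPM in basal libraries. Both rose in CD229+CD11c- without overlap, by 0.76 ± 0.09 at Mir483 (adjusted p = 7.7e-06) and 0.51 ± 0.12 at H19 (adjusted p = 0.0042), Mir483 keeping its call at 0.41 (adjusted p = 0.0077) with the loess offsets. Nctc1, an RNA of the muscle enhancer of the cluster, had 0.30 ± 0.14 (adjusted p = 0.17). In CD229+CD11c+ microglia Mir483 had 0.55 ± 0.09 (adjusted p = 0.0015) and H19 0.29 ± 0.12 (adjusted p = 0.15). The counts do not separate the parental copies.

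Among members with no coding start in their region, Miat, a long nuclear RNA of neural cells, had 102, 106 and 117 CPM in CD229+CD11c- and 78.1, 62.4 and 72.5 CPM in basal libraries. Its groups did not overlap and its log2 fold change was 0.61 ± 0.09 (adjusted p = 4.8e-05), lost with the loess offsets (0.17, adjusted p = 0.17). Gm11762 (47177 bp) had 339, 337 and 325 CPM in CD229+CD11c- and 241, 211 and 236 CPM in basal libraries, at 0.54 ± 0.07 (adjusted p = 6.5e-06), likewise lost (0.12, adjusted p = 0.34). Gm23363, a miRNA gene in RefSeq that lies in an intron on chromosome 2, had 64.1, 54.3 and 58.2 CPM in CD229+CD11c+, 80.9, 71.4 and 66.4 CPM in CD229+CD11c-, 42.6, 40.8 and 43.0 CPM in CD229-CD11c- and 38.4, 36.4 and 45.7 CPM in basal libraries. Both CD229+ subsets lay above basal there, at 0.55 ± 0.10 for CD229+CD11c+ (adjusted p = 0.0023) and 0.86 ± 0.10 for CD229+CD11c- (adjusted p = 3.5e-06). Carmn, a smooth muscle and heart lncRNA with one of the 5 longest regions, had 0.17 ± 0.07 (adjusted p = 0.11). 9530036O11Rik (0.79 ± 0.18, adjusted p = 0.0064) and 1810019D21Rik (0.75 ± 0.13, adjusted p = 0.00037) also rose, as did D630044L22Rik (0.79 ± 0.13, adjusted p = 0.00017) and Gm10857 (0.79 ± 0.13, adjusted p = 0.00023), whose regions hold the starts of A930017K11Rik and Proser2. With the loess offsets 1810019D21Rik lost its call (0.20, adjusted p = 0.32) and D630044L22Rik kept it at 0.42 (adjusted p = 0.033).

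The 10 losses in CD229+CD11c- lay between -0.31 and -1.43, and the largest was in Bhlhe40, a gene for a transcriptional repressor of the bHLH family active in macrophages. This 6296 bp region (mm10, chromosome 6, 108660629 to 108666925), assigned to 0610040F04Rik at a distance of 2843 bp, carries the name of the long isoform of Bhlhe40 in the deposited list, has no basal value over input, and is named here after its values were seen. It held 7.39, 10.7 and 13 CPM in CD229+CD11c+, 10.8, 14 and 14.7 CPM in CD229+CD11c-, 29.5, 30.5 and 33.2 CPM in CD229-CD11c- and 39.5, 31.7 and 34.8 CPM in basal libraries. The CD229+ libraries all lay far below the rest, with log2 fold changes against basal of -1.76 ± 0.16 in CD229+CD11c+ (adjusted p = 2.8e-06) and -1.43 ± 0.16 in CD229+CD11c- microglia (adjusted p = 2.6e-06). It sits inside a region of 108513 bp, whose tags include its own and which fell by 0.46 and 0.42 on the log2 scale in the same comparisons. A second 0610040F04Rik region of 16834 bp nearby did not pass, with -0.02 ± 0.11 for CD229+CD11c+ and -0.13 ± 0.11 for the CD229+CD11c- subset.

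C030034L19Rik, an intergenic region, had 13.6, 14.1 and 17.2 CPM in CD229+CD11c+, 15.9, 13.8 and 13 CPM in CD229+CD11c-, 16.4, 19.7 and 28.4 CPM in CD229-CD11c- and 32.2, 29.9 and 31.8 CPM in basal libraries. The CD229+CD11c- libraries lay below all CD229-CD11c- and basal ones, and the CD229-CD11c- libraries were spread between. Its log2 fold change was -1.06 ± 0.16 in CD229+CD11c+ (adjusted p = 0.00048) and -1.13 ± 0.16 in CD229+CD11c- microglia (adjusted p = 4.3e-05), and both held in every alternative. The count of 10 losses was 4 without basal replicate 4, 6 without CD229+CD11c- replicate 1 and 19 without CD229-CD11c- replicate 3. Of all regions, 913 fell in the main fit and 413, 470 and 1455 in these 3 fits. Smaller falls in CD229+CD11c- were seen at 4933429O19Rik (-0.41 ± 0.09, adjusted p = 0.004), Gm2109 (-0.35 ± 0.11, adjusted p = 0.039) and Gm13807 (-0.31 ± 0.10, adjusted p = 0.04). The Gm2109 call was lost without basal replicates 3, 4 or 5 or CD229+CD11c- replicates 1 or 2, at -0.37 to -0.29 (adjusted p = 0.074 to 0.18), and with the loess offsets (-0.27, adjusted p = 0.14). That of Gm13807 was lost without any single basal or CD229+CD11c- library or CD229+CD11c+ replicate 2, at -0.35 to -0.25 (adjusted p = 0.054 to 0.16), and with the PE150-tagged libraries alone (-0.20, adjusted p = 0.2). E330011O21Rik, outside the naming rule and chosen after its values were seen, had -0.64 ± 0.19 (adjusted p = 0.03), lost without basal replicate 4 (-0.39, adjusted p = 0.26) or any CD229+CD11c- library (-0.68 to -0.61, adjusted p = 0.065 to 0.1), and with the loess offsets (-0.56, adjusted p = 0.078).

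In CD229+CD11c+ against basal microglia, 40 members rose and 5 fell. Over all regions 4.33% rose and 1.47% fell, against 8.15% and 1.02% of the members and 14.1% and 1.81% of protein-coding starts. Of these members, 35 were also among the 80 that rose in CD229+CD11c-, and 4 fell in both. The basal libraries are common to the 2 comparisons, and the same overlap over all regions was not counted. The count of 40 depended on single libraries: it was 12 without basal replicate 4, 24 without basal replicate 5, 14 and 15 without CD229+CD11c+ replicates 1 and 2, and 72 without CD229-CD11c- replicate 3. The count of 5 was 2 without basal replicate 4 or CD229+CD11c+ replicates 1 or 2, 3 without basal replicate 5 or CD229+CD11c- replicate 2, 13 without CD229-CD11c- replicate 3 and 9 without CD229+CD11c+ replicate 3. Total-count scaling gave 24 higher and 13 lower, the loess offsets 22 and 6, and the PE150-tagged libraries alone 86 and 22. The authors' deposited table called 57 higher and 9 lower, and 1720 and 604 of all regions. Of all regions, total-count scaling called 687 higher and 796 lower, the loess offsets 734 and 347, and the PE150-tagged libraries 2863 and 1411. The main fit called 1139 of all regions higher. That was 332 without basal replicate 4, 768 without basal replicate 5 and 2060 without CD229-CD11c- replicate 3.

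Mir1900 had 68.0, 74.4 and 87.6 CPM in CD229+CD11c+ and 58.9, 51.0 and 54.3 CPM in basal libraries, at 0.49 ± 0.09 (adjusted p = 0.0036). That call was lost with the loess offsets (0.24, adjusted p = 0.084), as were those of the next 3 members, at 0.34 for Mir124-2hg, 0.16 for Mir3093 and 0.20 for Mir6973b. Mir124-2hg had 0.46 ± 0.10 (adjusted p = 0.0094), lost without basal replicate 4 (0.47, adjusted p = 0.056) or CD229+CD11c+ replicate 1 (0.40, adjusted p = 0.077). Mir3093 had 0.34 ± 0.07 (adjusted p = 0.0088), lost without basal replicate 4 (0.29, adjusted p = 0.073). Mir6973b had 0.36 ± 0.08 (adjusted p = 0.014), lost without basal replicates 3 or 4 or CD229+CD11c+ replicate 1 (0.33 to 0.36, adjusted p = 0.052 to 0.086). Calls at Mir129-2, Mir135a-1, Gm11762, 4932441J04Rik, 9530036O11Rik, Gm9767, 1700086L19Rik and Gm21283 were each lost in at least 3 of the 12 fits that left out 1 library. The falls were those in Bhlhe40 and at C030034L19Rik, and those at E330011O21Rik (-0.68 ± 0.19, adjusted p = 0.041), Gm13807 (-0.33 ± 0.10, adjusted p = 0.046) and Gm20383 (-0.52), the last also chosen after its values were seen. E330011O21Rik was lost in 4 of the 12 fits that left out 1 library, down to -0.43 (adjusted p = 0.28) without basal replicate 4, and with the loess offsets (-0.64, adjusted p = 0.057). Its value was -1.03 in the PE150-tagged libraries alone. Gm13807 was lost in 9 such fits, at -0.36 to -0.28, and Gm20383 in 5, at -0.58 to -0.42. Of the 25 calls followed in this comparison, 9 held in every fit that left out 1 library.

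In CD229-CD11c- against basal microglia no member passed the edgeR test in either direction, and none of the 26326 regions did (0% higher and 0% lower). At an unadjusted p under 0.05 there were 25 members and 1103 regions, and DESeq2 called 0 members. The 5 members with the smallest p each had an adjusted p of 0.98: 5730435O14Rik at 0.61 ± 0.15, 6430503K07Rik at 0.26 ± 0.09, Gm21283 at 0.30 ± 0.11, C030034L19Rik at -0.54 ± 0.16 and 4931408D14Rik at -0.91 ± 0.30. The levels of 4931408D14Rik, whose region of 1250 bp is of the smallest width in the set, were 2.5, 3.28 and 2.32 CPM in CD229-CD11c- and 2.8, 5.98 and 6.21 CPM in basal libraries, and they overlapped. The PE150-tagged libraries alone called 30 members higher and 3 lower, and 787 and 129 of all regions. The tag as a covariate called 1 and 1 members, and 32 and 1 of all regions. The authors' deposited table called none.

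Within the cuprizone diet, 62 members rose and 4 fell in CD229+CD11c- against CD229-CD11c- microglia. Over all regions 6.75% rose and 1.6% fell, beside 12.6% and 0.815% of the members and 20.5% and 1.56% of protein-coding starts. Of the 62, 56 had also risen against basal microglia, a comparison that has the CD229+CD11c- libraries in common. The matching overlap over all regions was not counted. 5730435O14Rik led with 1.33 ± 0.14 (adjusted p = 5e-06), followed by Mir1199 at 0.91, Mir181c at 0.85 ± 0.13 (adjusted p = 0.00017), Mir6392 at 0.81 and Gm23363 at 0.79 ± 0.10 (adjusted p = 2.5e-05). Mir193b had 0.61 ± 0.09 (adjusted p = 0.00012) and Mir193a 0.64 ± 0.13 (adjusted p = 0.0022), with all CD229+CD11c- libraries above all CD229-CD11c- libraries at both. The 4 that fell were the region in Bhlhe40 (-1.24 ± 0.16, adjusted p = 3.2e-05), Mir6386 (-0.89 ± 0.21, adjusted p = 0.0069), C030034L19Rik (-0.60 ± 0.17, adjusted p = 0.028) and 4933429O19Rik (-0.31 ± 0.09, adjusted p = 0.047). The count of 4 was 8 without CD229-CD11c- replicate 3 and 2 without CD229+CD11c- replicate 2. Of all regions, 422 fell in the main fit and 528 and 213 in these 2 fits. The C030034L19Rik call held in 16 of 21 alternative settings, and its value was -0.33 (adjusted p = 0.18) without CD229-CD11c- replicate 3 and -0.27 (adjusted p = 0.29) in the PE150-tagged libraries alone. Mir6386 was lost without CD229+CD11c- replicate 1 (-0.74, adjusted p = 0.057), and 4933429O19Rik in 11 of 12 fits that left out 1 library, at -0.34 to -0.25 (adjusted p = 0.054 to 0.17). Total-count scaling gave 41 higher and 26 lower, and the loess offsets 12 and 6. Of all regions, total-count scaling called 1059 and 1697, and the loess offsets 482 and 291. Replicate number as a block among the cuprizone libraries gave 93 and 23, and 3155 and 1440 of all regions. The labels do not state that these numbers pair libraries.

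In CD229+CD11c+ against CD229-CD11c- microglia 3 members rose and 1 fell, beside 0.395% higher and 0.152% lower over all regions. With the replicate block 58 members rose and 5 fell, and 1554 and 471 of all regions. The 3 were 5730435O14Rik (0.94 ± 0.14, adjusted p = 0.0016), Gm23363 (0.48 ± 0.10, adjusted p = 0.025) and Mir1900 (0.42 ± 0.09, adjusted p = 0.048). The fall was in Bhlhe40, at -1.58 ± 0.16 (adjusted p = 2.1e-05). The calls of 5730435O14Rik and Bhlhe40 held without any single library, while Gm23363 was lost without CD229-CD11c- replicates 1 or 2 or CD229+CD11c+ replicates 1 or 3, at 0.42 to 0.49 (adjusted p = 0.052 to 0.22). Mir1900 was lost in 8 such fits, at 0.31 to 0.44, and with the loess offsets (0.24, adjusted p = 0.25). With total-count scaling neither of these 2 passed. The count of 3 moved to 5 without CD229-CD11c- replicate 1 or CD229+CD11c- replicate 3, to 1 without CD229-CD11c- replicate 2 and to 6 without CD229-CD11c- replicate 3, and the count of 1 to 2 without CD229-CD11c- replicate 1.

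Between the CD229+ subsets, 4 members were lower in CD229+CD11c+ than in CD229+CD11c- microglia and none was higher, beside 0.771% lower and 0.0532% higher over all regions and 2.58% lower at protein-coding starts. At an unadjusted p under 0.05 there were 78 members and 3381 of all 26326 regions, and DESeq2 called 17 members lower and 1 higher, and 484 and 26 of all regions. The replicate block gave 57 members lower and 9 higher, and 1713 and 486 of all regions. Miat had 74.7, 81.3 and 83.7 CPM in CD229+CD11c+ and 102, 106 and 117 CPM in CD229+CD11c- libraries. Mir135a-1, a brain-expressed miRNA gene, had 48.1, 47.2 and 49.2 CPM against 66.3, 61.9 and 65.1 CPM, and Lhx1os 244, 232 and 257 CPM against 300, 302 and 360 CPM. Gm11762 had 268, 275 and 267 CPM in CD229+CD11c+ and 339, 337 and 325 CPM in CD229+CD11c- libraries. In each of the 4 the subsets did not overlap, which the naming rule required. All 4 had risen in CD229+CD11c- against basal microglia, a comparison that has the CD229+CD11c- libraries in common. Mir135a-1 had risen by 0.71 on the log2 scale (0.28 with the loess offsets, adjusted p = 0.044). How many of all the lower regions had risen likewise was not counted. Between the subsets the log2 fold changes were -0.44 ± 0.09 for Miat (adjusted p = 0.023) and -0.42 ± 0.08 for Mir135a-1 (adjusted p = 0.018). They were -0.39 ± 0.09 for Lhx1os (adjusted p = 0.047) and -0.31 ± 0.07 for Gm11762 (adjusted p = 0.032). Each was lost without some library of the 2 subsets, and none was called without CD229+CD11c- replicates 2 or 3 or CD229+CD11c+ replicates 1 or 2, where the values lay between -0.46 and -0.30. Total-count scaling called 0 lower, and so did the loess offsets, with values of -0.15 to -0.05 at the 4. The count was 1 without CD229+CD11c- replicate 1 and 2 without CD229+CD11c+ replicate 3. It was 10 without basal replicate 3 and 31 without CD229-CD11c- replicate 3. Of all regions, 203 were lower in the main fit, 25 with total-count scaling and 25 with the loess offsets. That count was 271 without basal replicate 3 and 740 without CD229-CD11c- replicate 3.

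The members were also set against how strongly they were marked in basal microglia, measured in 2 other basal libraries that are in none of the comparisons. With the 490 members that have a basal value split into 4 bins by that value, 53 of 123 in the highest bin rose in CD229+CD11c- against basal microglia and 2 of 123 in the lowest. At the same cut points, 29.2% of all regions and 49.6% of protein-coding starts rose in the highest bin, beside 43.1% of the members, and 1.69% and 6.14% in the lowest, beside 1.63%. Against CD229-CD11c- microglia the members' counts were 47 in the highest and 1 in the lowest bin, that is 38.2% and 0.813%, beside 22.6% and 1.06% of all regions and 37.6% and 4.39% of protein-coding starts. Of the 10 falls against basal, 8 of the 9 with a basal value lay outside the highest bin, where most members lie by design. In the highest and lowest bins 0.813% and 2.44% of the members fell, beside 1.71% and 4.53% of all regions.

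**Figure D4:**
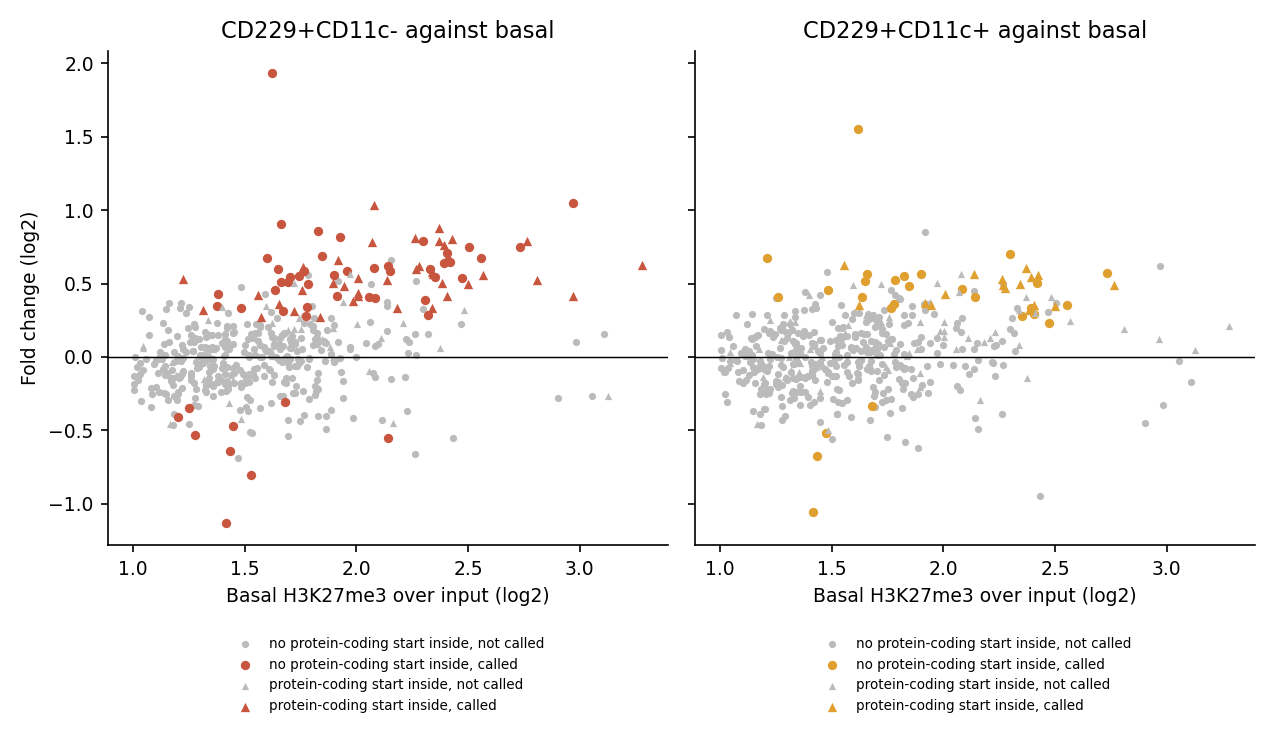
Log2 fold change against basal microglia (y) by the basal log2 H3K27me3 signal over input (x) for 490 members, in CD229+CD11c- (left) and CD229+CD11c+ (right); coloured points were called and triangles hold a protein-coding start. In CD229+CD11c-, 53 called gains lie in the highest and 20 in the third bin of basal enrichment, and 5730435O14Rik stands apart at 1.93 and 1.55.

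Of the members that also hold a protein-coding start, 39 of 81 (48.1%) rose in CD229+CD11c- against basal microglia, and none of the 81 fell. Among those without one, 41 of 410 (10.0%) rose. All 10 falls were counted as without a coding start by the RefSeq promoter table. They include the region in Bhlhe40, although it carries the name of that coding gene. Over all regions 9.52% rose and 3.47% fell. Members with a coding start were also wider, with a median of 12515 bp against 7073.5 bp, and more enriched in basal cells, with a median log2 of 1.90 against 1.53. Within the highest bin of basal enrichment the counts were 30 of 45 with a coding start and 23 of 78 without, and within the third bin 5 of 13 and 15 of 109. The part that width or basal enrichment has in this was not tested beyond these counts. By CpG content of the promoter, 22 of 57 members (38.6%) with a ratio of at least 0.6 rose, among them Miat and Lhx1os. With a lower ratio 24 of 262 (9.16%) rose, among them 5730435O14Rik and Evx1os. The median basal log2 was 1.74 with the higher ratio and 1.48 with the lower, and its part in this was not tested. The 46 risen members with a promoter in the table had a median ratio of 0.57, against 0.27 in the 273 that did not rise. The 5 fallen members with a promoter had a median ratio of 0.50.

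**Figure D5:**
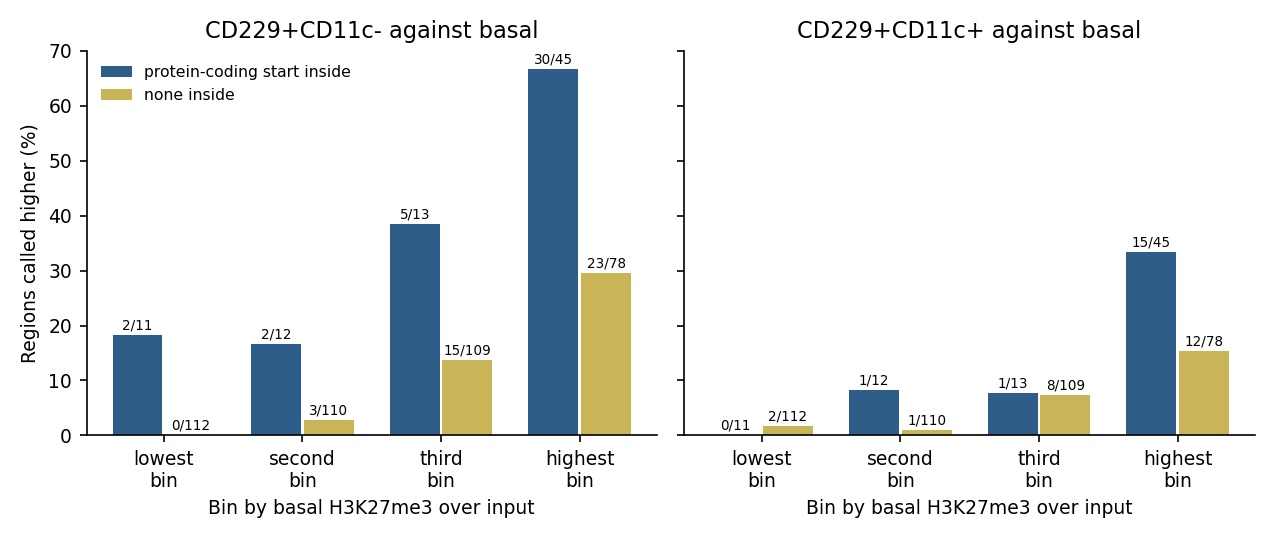
Percent of members called higher against basal microglia, by bin of basal H3K27me3 over input, for members with and without a protein-coding start inside; the fraction above each bar gives called over all. In CD229+CD11c- the bars reach 30/45 and 23/78 in the highest bin.

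The strongest basal enrichment was at Dlx1as and at 4 members on the X chromosome. 3010001F23Rik, C430049B03Rik, 3632454L22Rik and Gm14635 had basal log2 values of 2.98 to 3.12, and the 11 members on X a median of 2.73 against 1.57 for the 480 on autosomes. Their levels were low, from 1.69 to 18.96 CPM, and none of the 4 passed in any comparison. 3010001F23Rik, beside the receptor gene Gpr173, had 7.72, 3.97 and 9.09 CPM in CD229+CD11c- and 10.3, 6.72 and 8.2 CPM in basal libraries, which overlap. Of the 11 members on X, 3 rose in CD229+CD11c- against basal microglia, and 77 of the 480 on autosomes, beside 9.52% of all regions.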

How the data were processed

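H3K27me3 ChIP-seq tag counts of 12 libraries were analysed, 3 each of CD229+CD11c+, CD229+CD11c-, CD229-CD11c- and basal microglia, grouped by GEO's labels. The submitters' processing notes name HOMER, DESeq2, fastp (0.20.0), STAR (2.7.0f) and Bowtie2 (2.3.4.1). Per the file headers, the authors called regions with HOMER on basal replicates 1 and 2 against 2 inputs (mm10) and annotated them with HOMER. The region in Bhlhe40 has counts but is not among these 26325 basal regions, and its origin is not stated. The deposited count per region is a raw tag count with no input subtracted. The authors' table of basal regions gives a deposited log2 fold over input with p-values, and region sizes in bp. The authors' table of comparisons gives deposited signal values, normalized per library, with log2 fold changes and p-values. Input libraries and basal replicates 1 and 2 have no counts in the count table and entered only through the log2 fold over input.

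Counts were fitted in edgeR 4.0.16 (R 4.3.3; TMM, robust quasi-likelihood, all 4 groups in 1 fit), with Benjamini-Hochberg adjustment over 26326 regions and an adjusted p threshold of 0.05. The low-count filter removed 0 regions. The script was tested on simulated data. Alternatives were RLE and total-count scaling, DESeq2 1.42.0, a mean of at least 100 counts, the PE150 title tag, loess offsets (span 0.3) on basal enrichment and tag density, narrower member rules, a replicate block and leaving out each library. CPM are scaled by TMM, and SE are of log2 fold changes. Members and lists were chosen with earlier results of these data known. Members were named as the called regions with the largest changes whose groups did not overlap (up to 10 each way per comparison, 5 for CD229+CD11c+ against CD229+CD11c-), the 5 with the smallest p where none passed, up to 4 per list, up to 15 called miRNA genes, and the 5 most enriched and 5 longest. Promoter and miRNA sequences are from RefSeq (GRCm38.p6).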

Additional observations from a re-analysis of the deposited data

Results flagged for a closer look

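Between the 2 CD229+ subsets, 4 members differed by the test of the difference itself, CD229+CD11c+ against CD229+CD11c- microglia (edgeR quasi-likelihood test). These are 0.815% of the members, near the 0.771% of all regions and below the 2.58% of protein-coding starts. The log2 fold changes were -0.44 at Miat, -0.42 at Mir135a-1, -0.39 at Lhx1os and -0.31 at Gm11762. Each was lower in 3 of 3 CD229+CD11c+ libraries, which the naming rule required. All 4 calls were lost with total-count scaling and with the loess offsets.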

How the results depend on the processing

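Counts below are members higher and lower, and the cause of each shift was not tested unless the setting itself keeps fewer members. The main counts were 80 and 10 for CD229+CD11c- against basal, 40 and 5 for CD229+CD11c+ against basal, and 62 and 4 for CD229+CD11c- against CD229-CD11c-. In that order, total-count scaling gave 56 and 45, 24 and 13, and 41 and 26, moving the median of all regions to -0.16, -0.08 and -0.14. The PE150 tag as a covariate gave 108 and 30, 91 and 24, and 90 and 18, and the tagged libraries alone 107 and 27, 86 and 22, and 73 and 15. The loess offsets gave 35 and 13, 22 and 6, and 12 and 6. Of all regions, the main fit called 2506 and 913, 1139 and 386, and 1777 and 422. Total-count scaling called 1578 and 3789, 687 and 796, and 1059 and 1697 of them. The covariate called 3696 and 2132, 2943 and 1595, and 3029 and 1341. The tagged libraries called 3570 and 1962, 2863 and 1411, and 2494 and 815. The loess offsets called 1186 and 729, 734 and 347, and 482 and 291. Fewer members remained with a TSS within 1000 bp (35 and 3, 22 and 1, 28 and 1) or a basal log2 of at least 2 (44 and 1, 23 and 0, 38 and 0). A mean of at least 100 counts gave 8 lower in the third comparison.

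For CD229-CD11c- against basal (0 and 0), the covariate gave 1 and 1 and the tagged libraries 30 and 3. For CD229+CD11c+ against CD229-CD11c- (3 and 1), total counts gave 1 higher, DESeq2 9 higher, the covariate 42 and 5, the tagged libraries 27 and 3, loess 0 lower (its 1 fall, in Bhlhe40, has no basal value), and the TSS and basal limits 1 and 0 each. For CD229+CD11c+ against CD229+CD11c- (0 and 4), RLE gave 8 lower, total counts and loess 0 lower, DESeq2 1 and 17, a mean of at least 100 counts 1 higher, the covariate 6 and 53, the tagged libraries 5 and 34, and the TSS limit 1 lower.

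Leaving out 1 library gave 63 to 96 higher and 4 to 19 lower in CD229+CD11c- against basal, 12 to 72 and 2 to 13 in CD229+CD11c+ against basal, 0 to 0 and 0 to 1 in CD229-CD11c- against basal, 48 to 66 and 2 to 8 in CD229+CD11c- against CD229-CD11c-, 1 to 6 and 1 to 2 in CD229+CD11c+ against CD229-CD11c-, and 0 to 1 and 0 to 31 between the CD229+ subsets. The counts of 96, 72 and 31 came without CD229-CD11c- replicate 3, which has no PE150 tag. Of all regions, 3134, 2060 and 740 were called in the same fits, beside 2506, 1139 and 203 in the main fit. Whether the tag has a part in this was not tested.

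The labels do not say whether libraries of the same replicate number are paired in the cuprizone groups. All 9 same-number correlations of deviations were positive, between 0.083 and 0.457, and the 18 others ran between -0.373 and 0.248. The numbers may thus mark shared structure, which the main fit, without a replicate block, leaves out. With a replicate block, counts were 93 and 23 for CD229+CD11c- against CD229-CD11c-, 58 and 5 for CD229+CD11c+ against CD229-CD11c-, and 9 and 57 between the CD229+ subsets. The cuprizone libraries alone without the block, added after seeing the data, gave 2 lower in the first of these.

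Of 107 calls at named members, 106 held with RLE, 105 with DESeq2, 107 with the covariate and 84 with total counts, and of 103 with loess offsets 41 did. Dlx1as reversed there, to -0.13 against basal and -0.10 against CD229-CD11c- in CD229+CD11c- microglia. The median over all members was 190 to 278 tags per library and the lowest member had 8 to 27, which limits what small changes can be seen.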
